A study of Mus musculus with 40 samples.

Results

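Myelin genes of oligodendrocytes were followed in bulk RNA of mouse cortex after successive mild head injuries. The group holds 9 genes (Mbp, Mobp, Mal, Cldn11, Mag, Mog, Opalin, Cnp and Ermn), taken by name from the 55539 genes of the deposited count table, and all 9 passed the filter on low counts that left 15224 genes for testing. The measured tissue was the left somatomotor cortex, dissected from female mice of the 3xTg-AD line on a C57BL/6J background, aged 2 to 4 months, with transgenes for mutant human amyloid precursor protein and tau under a Thy1 promoter, active mainly in neurons, and a mutant presenilin 1. All groups, sham included, carried these alleles, so no wild-type level is given here. Closed head injury (CHI) by weight drop was given under isoflurane once a day, and sham mice had the anesthesia alone.

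Tissue was taken 0.5, 4 or 24 h after 1, 3 or 5 injuries (1xCHI, 3xCHI and 5xCHI), 24 h after 2 injuries (2xCHI, the level before the third) and 24 h after 4 injuries (4xCHI, the level before the fifth). The shams formed 1 group of 4 samples. Injured groups held 3 or 4 samples, apart from 3xCHI at 4 h with 2. Sample 30, which belonged to that group, was left out, and 39 of the 40 samples were used.

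Myelin is the stacked membrane that oligodendrocytes wrap around axons, and it is densest in white matter, which in this region lies just below the deepest cortical layer. Its genes are switched on together late in oligodendrocyte differentiation by the transcription factors SOX10 and MYRF, and their RNAs are among the most abundant of the brain. Bulk RNA from a cortical dissection therefore holds myelin RNA from oligodendrocytes within the grey matter and from any white matter taken with it. In these bulk samples fewer oligodendrocytes and less RNA per oligodendrocyte cannot be told apart, and the white matter content of each dissection was not measured.

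The promoters of Opalin, Cldn11 and Mag are shown because their windows can be set beside the levels below. Opalin and Cldn11 were the members that departed most from the rest across samples. The Mag window shown holds both a SOX and a MYRF core. Each line gives the 250 bases before the RefSeq start of transcription (GRCm38.p6), 5′ to 3′ on the gene's strand, with matches in capitals to the SOX core ACAAAG, the MYRF core CTGGCAC and the E-box CAGCTG, on either strand. Opalin lies on the minus strand with its window at chr19:41077114-41077363, Cldn11 on the plus strand at chr3:31149670-31149919 and Mag on the minus strand at chr7:30914923-30915172.
Opalin: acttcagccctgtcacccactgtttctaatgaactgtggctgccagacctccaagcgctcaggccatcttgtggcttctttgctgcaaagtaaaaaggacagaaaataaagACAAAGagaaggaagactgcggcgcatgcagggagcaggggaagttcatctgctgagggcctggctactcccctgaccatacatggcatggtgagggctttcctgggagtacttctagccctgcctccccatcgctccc
Cldn11: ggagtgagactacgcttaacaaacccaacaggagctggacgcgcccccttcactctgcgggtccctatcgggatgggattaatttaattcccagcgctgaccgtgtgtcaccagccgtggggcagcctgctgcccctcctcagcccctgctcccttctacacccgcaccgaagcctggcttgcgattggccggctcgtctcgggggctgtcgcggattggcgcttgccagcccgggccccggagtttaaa
Mag: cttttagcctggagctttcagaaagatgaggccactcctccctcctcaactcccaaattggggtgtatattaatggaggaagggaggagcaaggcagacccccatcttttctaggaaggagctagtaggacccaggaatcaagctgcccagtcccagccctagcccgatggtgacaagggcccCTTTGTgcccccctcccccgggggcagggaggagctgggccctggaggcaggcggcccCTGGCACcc

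The Opalin window holds the SOX core 139 bases before the start, the Mag window holds it 67 bases before the start and the MYRF core 9 bases before, and the Cldn11 window holds none of the 3 motifs. Over the 8 members with a RefSeq promoter entry, the SOX core was found for Cnp, Mag, Mobp and Opalin and the MYRF core for Cnp and Mag. Among all 32851 promoter windows of the same length, 16.5% held the SOX core, 4.19% the MYRF core and 13.0% the E-box, which was found for no member. These shares are of single windows, while the members were counted by gene, and a gene may have several windows. The member counts therefore cannot be set against these shares. Whether both cores of Cnp lie in the same window is not given here. A match is only a run of letters, and the absence of one says nothing of binding.

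The members differed widely in level, and the genes of compact myelin came first. Values are given in CPM, a gene's count divided by the summed counts of its sample and scaled by the constant of that unit, and for comparing genes they were also divided by the length of the merged exons, scaled to a fixed total in each sample. Mbp, myelin basic protein, which holds the cytoplasmic faces of the myelin membrane together (ENSMUSG00000041607, chr18:82475146-82585637, plus strand, GRCm38), stood at 2531 ± 557 CPM (SD, n = 39) and, per length, at 811 ± 153. Mobp, another small basic protein of compact myelin (chr9:120149707-120181484), had 1023 ± 199 CPM and 405 ± 68.0 per length. Mal, a proteolipid of myelin membrane traffic (chr2:127633226-127656695, minus strand), and Cldn11, the claudin of the tight junctions between myelin layers (chr3:31149920-31164324), were alike per length, at 244 ± 48.2 and 241 ± 91.5, with a spread for Cldn11 that was the larger.

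The surface and cytoplasmic proteins of the sheath were lower. Cnp, the cyclic nucleotide phosphodiesterase that keeps cytoplasmic channels in myelin open (chr11:100574904-100591729), had 206 ± 40.7 per length. Mag, the adhesion molecule that faces the axon (chr7:30899176-30914873, minus strand), had 99.6 ± 27.9, and Mog, on the outermost surface of the sheath (chr17:37010743-37023398, minus strand), had 77.1 ± 19.2. Ermn, which encodes the cytoskeletal protein ermin of mature oligodendrocytes (chr2:58045113-58052864, minus strand), had 52.3 ± 11.5, and Opalin, a membrane protein of mature oligodendrocytes (chr19:41061710-41077113, minus strand), had 18.1 ± 5.24, the lowest of the 9. Neighbours in this order differed by less than the larger of their SDs for Mal and Cldn11, Cldn11 and Cnp, and Mag and Mog. Exons of Mobp, Cnp and Ermn overlap exons of Gm38642, Dnajc7 and Galnt5, so that reads there may be split between the pairs.

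Mbp had 32480 to 89124 counts per sample, while Opalin, the lowest, had 150 to 696. Summed counts per sample ranged from 15926014 to 27859547 with a median of 19028778.

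In the cortex as dissected, neuronal markers were high in every sample and markers of neighbouring tissue varied. The summed level of 8 neuronal markers ranged from 6143 to 9661 CPM, lowest in sample 11. Striatal markers reached 843 CPM in sample 26 against a median of 189, choroid plexus markers reached 2465 CPM in sample 31 against a median of 20.3, and meningeal markers reached 394 CPM in sample 15 against a median of 97.5. The samples carry numbers in their titles, and the summed level of the 9 myelin genes was 5007 ± 1004 CPM over samples 1 to 18 and 4119 ± 691 over samples 19 to 40. This division was taken over from earlier work on these data and was not derived here. What the numbers stand for is not stated.

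**Figure D1:**
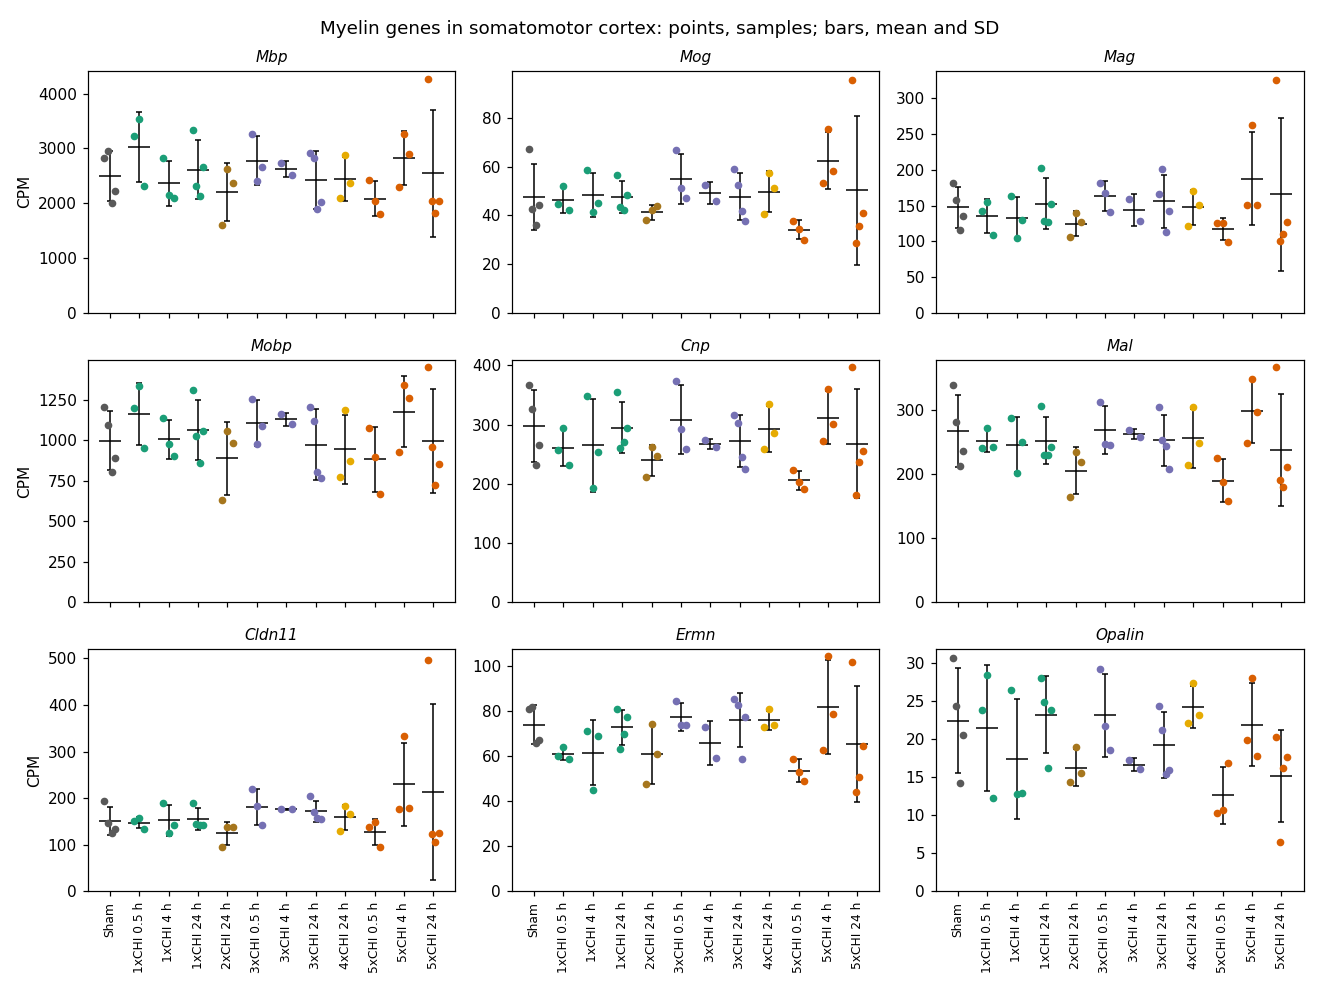
CPM of each of the 9 myelin genes (y axis, from 0) in the 12 groups of injury number and time (x axis), with 1 point per sample and bars for mean and SD. Groups overlap for most genes, and sample 11, at the top of 5xCHI 24 h, reaches 4274 CPM for Mbp and 496 CPM for Cldn11.

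Summed over the 9 genes, sham samples stood at 5286, 5109, 3600 and 4024 CPM. The lowest group mean was that of 5xCHI at 0.5 h (3704 ± 603 CPM, n = 3), followed by 2xCHI (3900 ± 876, n = 3) and 1xCHI at 4 h (4294 ± 712, n = 3). The highest were 5xCHI at 4 h (5191 ± 962, n = 3), 1xCHI at 0.5 h (5112 ± 927, n = 3) and 3xCHI at 0.5 h (4959 ± 730, n = 3). Each group next to another in this order differed from it by less than 1 SD. The whole range ran from 2913 CPM in sample 19, at 24 h after 2 injuries, to 7532 CPM in sample 11, at 24 h after 5, which is 2.59-fold.

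The first question of the design was whether the number of injuries, with time points combined, moved these genes from sham. In none of the 5 comparisons did a member pass the edgeR quasi-likelihood test at an adjusted p under 0.05, and neither did any of the 15224 genes (0% called in each). At an unadjusted p under 0.05, 0 of 9 members passed for 1xCHI, 2xCHI, 3xCHI, 4xCHI and 5xCHI, where 17.2%, 4.45%, 3.86%, 1.7% and 11.6% of all genes did. DESeq2 called 0 members as well, and 0 at an unadjusted p under 0.05, while of all genes it called 24 for 1xCHI and 10 for 5xCHI.

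After 1 injury the 9 log2 fold changes against sham ran from -0.15 for Ermn to 0.13 for Mobp, with a median of -0.04 beside 0.01 over all genes. The 95% intervals of all 9 lay between -0.58 and 0.55. After 3 injuries they ran from -0.17 (Opalin) to 0.22 (Cldn11), with a median of 0.04, and after 4 injuries from -0.09 (Mobp) to 0.10 (Opalin), with a median of -0.01. The sign of these 3 medians rested on single samples. Without sham sample 6 they were 0.08, 0.08 and 0.07, without sham sample 35 they were -0.13, -0.04 and -0.11, and in no fit that left out 1 sample of the compared groups did a member pass unadjusted. Fitted with the sample range as a covariate they were -0.14, -0.02 and 0.03, and with sample number -0.08, -0.06 and 0.04, again with 0 of 9 unadjusted.

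After 2 injuries all 9 values were below 0, from -0.45 (Opalin) to -0.16 (Mobp), with a median of -0.26 beside 0.00 over all genes. For Mal, the member with the smallest p, the 3 samples after 2 injuries stood at 164, 233 and 218 CPM and the 4 sham samples at 339, 281, 212 and 236 CPM. The groups overlapped, and the log2 fold change of Mal was -0.37 with an SE of 0.20 and a 95% interval of -0.78 to 0.04 (edgeR, adjusted p = 0.94). Without sample 19 the median of the 9 genes was -0.13, and 2 of the 9 were above 0, and without sham sample 6 the median was -0.14. Mal alone passed unadjusted without sample 21 (2.5% of all genes), without sham sample 35 (3.57%) and without samples 10 and 11 (5.99%). With the sample range as a covariate the median was -0.15 and with sample number -0.27, with all 9 below 0 in both.

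After 5 injuries the members went apart. Cldn11 had the highest value, a log2 fold change of 0.34 with an interval of -0.18 to 0.86, and Opalin the lowest, -0.45 with an interval of -0.95 to 0.04 (edgeR, adjusted p = 0.56 and 0.46). The other 7 lay between -0.19 (Cnp) and 0.09 (Mag). Samples 10 and 11 of this group had the highest summed myelin level of all 39, and without both Cldn11 turned to -0.13 and all 9 genes were below 0, with a median of -0.25 and a smallest adjusted p of 0.64. In that fit 4 of 9, Ermn, Mal, Cnp and Opalin, passed unadjusted, where 6.63% of all genes did. Leaving out the highest samples lowers the 5xCHI level by construction, so the direction and count in that fit are no support for a decrease. On leaving out 1 sample of the compared groups, Opalin alone passed unadjusted without sample 10 (9.87% of all genes) and without sham sample 35 (6.43%), and 0 of 9 otherwise. With the sample range as a covariate 8 of 9 were below 0, with a median of -0.12 and Cldn11 at 0.16, and with sample number 7 of 9, with a median of -0.09 and Cldn11 at 0.22. Opalin alone passed unadjusted with each, where 6.5% and 8.21% of all genes did.

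**Figure D2:**
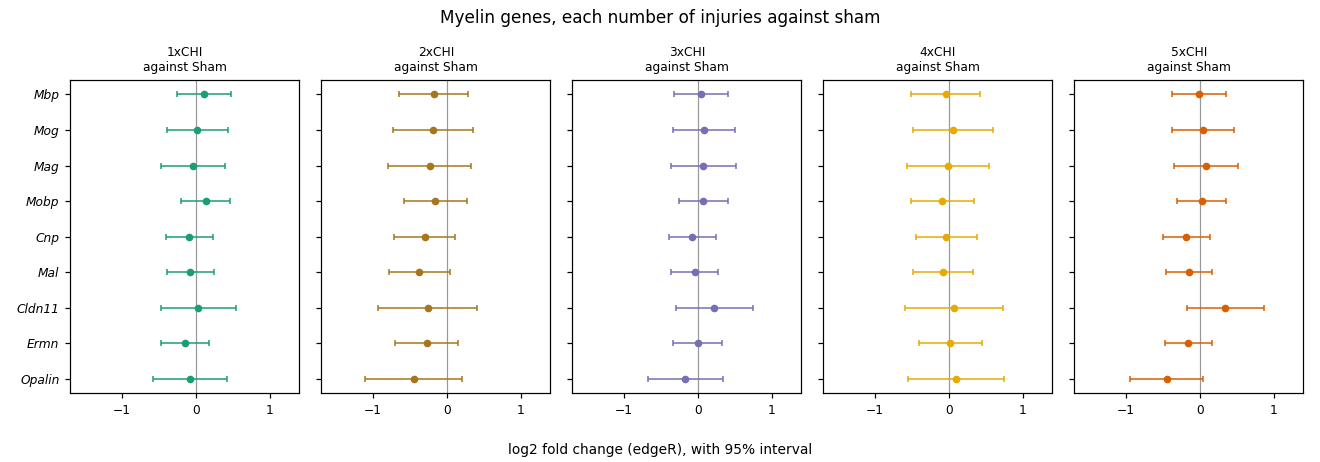
Log2 fold change of each myelin gene against sham (x axis, with 95% interval from edgeR) for 1, 2, 3, 4 and 5 injuries with time points combined. Every interval reaches 0, and Opalin and Cldn11 lie farthest apart after 5 injuries, at -0.45 and 0.34.

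Each injury was then compared with the level just before it. For the first injury this was sham, and 0 of 9 members were called at 0.5, 4 or 24 h, with 0 of 9 at an unadjusted p under 0.05 by edgeR and by DESeq2. Among all genes, edgeR called 0% at each time and 19.7%, 10.5% and 6.02% passed unadjusted, while DESeq2 called 28, 11 and 0 genes. On leaving out 1 sample of these groups, edgeR called up to 3597 genes at 0.5 h and up to 606 at 4 h, with 0 members among them. Mbp at 0.5 h had the highest value, with samples at 3232, 3542 and 2307 CPM against 2824, 2955, 1999 and 2228 CPM in sham. These groups overlapped, and the log2 fold change was 0.34 with an interval of -0.13 to 0.80 (edgeR, adjusted p = 0.37). Without sample 27 it was 0.51 and Mbp alone of the 9 passed unadjusted (edgeR, adjusted p = 0.12), in a fit where 39.9% of all genes did, and without sample 14 it was 0.21. A covariate for the sample range or the sample number gave 0.20 or 0.24, and the median of the 9 went from 0.01 to -0.13 or -0.09, with 0 of 9 unadjusted.

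At 4 h after the first injury the 9 values ran from -0.36 (Opalin) to 0.03, with a median of -0.11. Without sample 15 all 9 were below 0, with a median of -0.23 and Opalin at -0.79, the 1 of 9 that passed unadjusted (6.33% of all genes). Without sample 16 the median was 0.02, with 6 of 9 above 0. All 9 were below 0 with the sample range as a covariate, with a median of -0.20 and Opalin at -0.48, and with sample number 8 of 9, with a median of -0.12. At 24 h the values ran from -0.09 to 0.09, and on leaving out 1 sample the median ran from -0.07 (sample 17) to 0.13 (sham sample 6). It was -0.04 or -0.01 with the sample range or the sample number as a covariate.

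For the third injury all 9 members lay above the level of the day before at each time, and 0 of 9 passed at 0.5, 4 or 24 h, adjusted or unadjusted, by edgeR or by DESeq2. Among all genes edgeR called 0% at each time, and 1.88%, 2% and 4.57% passed unadjusted. DESeq2 called 4, 0 and 0 genes, and edgeR called up to 5 at 0.5 h on leaving out 1 sample. The medians of the 9 log2 fold changes were 0.37, 0.24 and 0.23, and Cldn11 had the largest value at each time (0.52, 0.49 and 0.45), each with an interval that reached 0. These 3 comparisons share the same 3 samples after 2 injuries, sample 19 among them, so their common direction is 1 observation and not 3. Without sample 19 the medians were 0.26, 0.09 and 0.14, and 2 of 9 members were below 0 at 4 h and at 24 h. Without sample 2 the median at 24 h was 0.10, and without sample 1 that at 4 h was 0.14, with 2 of 9 below 0. Without sample 21 the medians were 0.46, 0.29 and 0.36, with 2, 0 and 1 of 9 unadjusted (3.11% of all genes at 0.5 h and 3.09% at 24 h). Without samples 10 and 11, which are in none of these groups, 3, 1 and 1 of 9 passed unadjusted, where 2.83%, 2.98% and 6.53% of all genes did. The 3 samples after 2 injuries are all among samples 19 to 40 and the 2 at 4 h after the third injury among samples 1 to 18, so at 4 h injury and sample range cannot be told apart within these groups. With the sample range as a covariate, fitted over all groups, the medians were 0.18, -0.04 and 0.14, and 6 of 9 members were below 0 at 4 h. With sample number as a covariate they were 0.21, -0.05 and 0.23, and again 6 of 9 were below 0 at 4 h. In both fits the largest value was that of Opalin at 0.5 h (0.29 and 0.33), of Mal at 4 h (0.12 and 0.11) and of Cldn11 at 24 h (0.32 and 0.48).

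For the fifth injury the values lay below 0 at the first time and mostly above it at the next. At 0.5 h all 9 members were below the level of the day before, with a median log2 fold change of -0.41 beside 0.01 over all genes. None passed after adjustment (0% of all genes did by edgeR, and 1 gene by DESeq2), while Ermn, Cnp and Opalin had an unadjusted p under 0.05 by edgeR, 3 of 9 where 6.37% of all genes did, and DESeq2 gave 5 of 9 where 6.67% did. The 9 genes vary together, so these counts are not 9 separate observations. In 4 of the 9, Cnp, Ermn, Mog and Opalin, every sample at 0.5 h was below every sample of 4xCHI, as in 11.8% of all genes.

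Opalin at 0.5 h after the fifth injury stood at 10.2, 10.6 and 16.9 CPM, and in 4xCHI at 22.0, 27.3 and 23.1 CPM. The groups did not overlap, and the log2 fold change was -0.91 with an SE of 0.34 and an interval of -1.60 to -0.23 (edgeR, adjusted p = 0.78). Cnp stood at 223, 203 and 191 CPM against 258, 334 and 285 CPM. Again no sample of one group reached the other, and the log2 fold change was -0.49 with an interval of -0.91 to -0.07 (edgeR, adjusted p = 0.78). Ermn stood at 59.0, 52.8 and 49.0 CPM against 72.9, 80.8 and 73.8 CPM, a log2 fold change of -0.48 with an interval of -0.91 to -0.05 (edgeR, adjusted p = 0.78). Mobp moved least, at -0.08, with samples of 1074, 898 and 671 CPM against 774, 1184 and 873 CPM.

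The median at 0.5 h after the fifth injury stayed below 0 in each of the 6 fits that left out 1 sample of these groups, from -0.55 without sample 7 to -0.28 without sample 25, and the count moved. Without sample 25 of 4xCHI, and without sample 31, where the median was -0.30, Mobp was above 0 and Opalin alone passed unadjusted (5.54% and 6.95% of all genes). Opalin was also the only one without sample 8 (3.95%), while 3 of 9 passed without sample 7 (4.76%) and 5 of 9 without sample 24 (4.11%). Without samples 10 and 11, which are in neither group, 5 of 9 passed where 8.12% of all genes did. With the sample range or the sample number as a covariate the median was -0.57 or -0.58, and 6 of 9 passed unadjusted with each, where 5.07% and 5.25% of all genes did.

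At 4 h after the fifth injury 8 of the 9 were above the level of 4xCHI, with a median of 0.22, and Opalin was at -0.14. Of the members 0 of 9 passed, adjusted or unadjusted (0% and 5.33% of all genes), also by DESeq2. Cldn11 stood at 177, 332 and 180 CPM against 129, 182 and 165 CPM, and its 332 belongs to sample 10. Without sample 10 its log2 fold change went from 0.53 to 0.17 and the median of the 9 from 0.22 to 0.09. Without sample 24 the median was 0.11 and without sample 25 it was 0.36, with 8 of 9 above 0 in each. It was 0.07 or 0.09 with the sample range or the sample number as a covariate, with 7 of 9 above 0.

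At 24 h after the fifth injury the values spread from -0.66 (Opalin) to 0.41 (Cldn11), with a median of 0.02. Opalin was the only 1 of 9 with an unadjusted p under 0.05, by edgeR and by DESeq2 (6.44% and 6.88% of all genes, and 0% by edgeR after adjustment). Its samples stood at 20.2, 6.46, 16.2 and 17.7 CPM, beside 22.0 to 27.3 CPM in 4xCHI (edgeR, log2 fold change -0.66, interval -1.29 to -0.04, adjusted p = 0.73). How many of all genes had no overlap between these groups was not counted. Without sample 12, the 1 at 6.46 CPM, the log2 fold change was -0.42 and 0 of 9 members passed unadjusted, as without sample 25 or 40 of 4xCHI. Cldn11 stood at 496, 123, 107 and 124 CPM, so that 1 sample lay far above and the other 3 below the 129 to 182 CPM of 4xCHI. Without sample 11 its log2 fold change turned from 0.41 to -0.40, and all 9 members were below 0 with a median of -0.37 (edgeR, smallest adjusted p = 0.99). In that fit 4 of 9, Ermn, Mal, Mog and Opalin, passed unadjusted, where 4.99% of all genes did, and without samples 10 and 11 it was 5 of 9 (5.26%). Sample 11 had the highest summed myelin level of all, so leaving it out lowers this group by construction. With the sample range as a covariate the median was -0.18, with 8 of 9 below 0 and Cldn11 at 0.08, and with sample number it was -0.12, with 7 of 9 below 0 and Cldn11 at 0.17. Opalin alone passed unadjusted in both (4.96% and 5.42% of all genes).

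**Figure D3:**
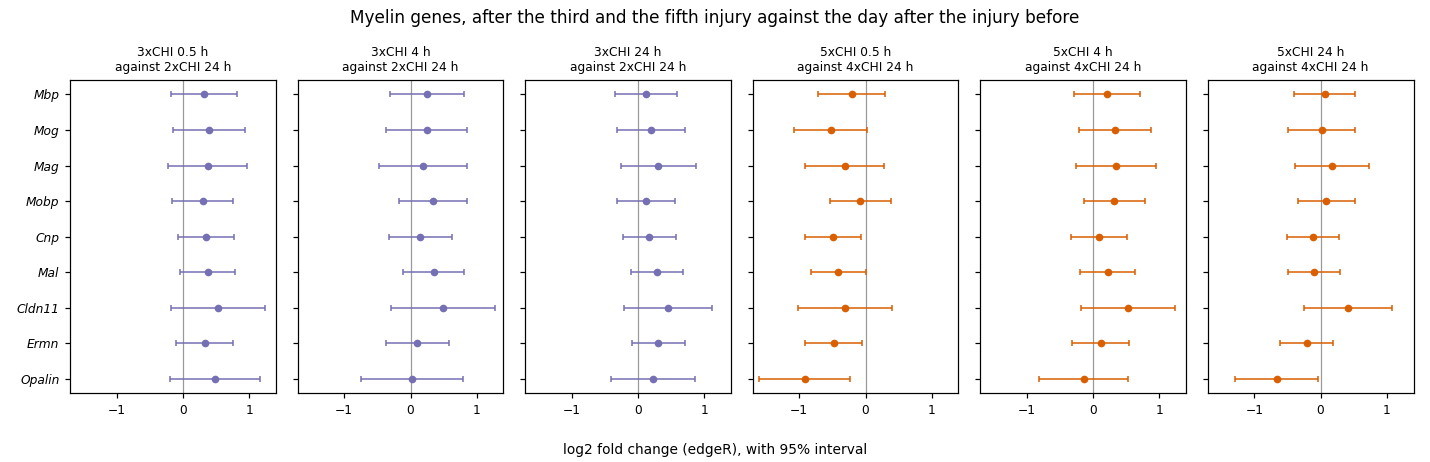
Log2 fold change of each myelin gene (x axis, with 95% interval from edgeR) at 0.5, 4 and 24 h after the third injury against 2xCHI 24 h and after the fifth against 4xCHI 24 h. All 9 points lie above 0 in the 3 panels for the third injury and below 0 at 0.5 h after the fifth, where the intervals of Ermn, Cnp and Opalin do not reach 0.

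Tests across several groups at once gave the same count. For a difference among 0.5, 4 and 24 h at the same number of injuries, 0 of 9 members passed, adjusted or unadjusted (edgeR, smallest adjusted p = 1.00), where 0.0328% of all genes were called and 4.25% passed unadjusted. Between the numbers of injuries at 24 h, 0 of 9 passed, adjusted or unadjusted (0% and 4.83% of all genes). For a change after an injury that differs between the first, the third and the fifth, 0 of 9 passed (0% and 3.33% of all genes). Opalin had the smallest p of the 9, 0.054 (edgeR, adjusted p = 1.00). Of all genes DESeq2 called 55, 31 and 8 in the 3 tests, and of the members 0 in each. At an unadjusted p under 0.05 it gave 0, 0 and 2 of 9 members, where 5.56%, 6.09% and 4.62% of all genes passed. These counts moved with single samples, most with sample 11. Without it 5 of 9 members passed unadjusted for the time points (6.06% of all genes), 1 of 9, Ermn, for the numbers of injuries at 24 h (4.36%) and 7 of 9 for the change that differs between injuries (5.18%), with 0 called. The last test had a member unadjusted in 15 of the 39 fits that left out 1 sample, with 3 of 9 without sample 15 (3.29%) and 2 of 9 without sample 12 (3.35%) or 21 (3.12%), and 1 of 9 in the remaining 11. With sample number as a covariate the 3 counts were 1, 0 and 3 of 9 (4.95% of all genes in the first and 5.08% in the last), and with the sample range 0, 0 and 2 of 9 (5.82% in the last). Without samples 10 and 11 the 3 counts were 1, 2 and 4 of 9, where 5.08%, 4.84% and 5.21% of all genes passed.

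At matched times 3xCHI against 1xCHI gave log2 fold changes of -0.11 to 0.19 with a median of 0.04. Of the members 0 of 9 were called, where edgeR called 0% of all genes and DESeq2 13 genes. At an unadjusted p under 0.05, 0 of 9 passed by edgeR (9.47% of all genes) and by DESeq2 (9.95%). On leaving out 1 sample of these groups edgeR called 0 to 40 genes, and the median of the 9 members ran from -0.01 to 0.10. That median was 0.03 or -0.07 with the sample range or the sample number as a covariate, and 0 of 9 passed unadjusted in each of these fits. For 5xCHI against 1xCHI, the comparison with the most calls in the series, 1.1% of all genes were called and 16.4% passed unadjusted. Of the 9 members 0 were called, and Opalin alone passed unadjusted, by edgeR and by DESeq2 (17% of all genes by the latter, which called 524 genes). Its log2 fold change was -0.37 with an interval of -0.75 to 0.00 (edgeR, adjusted p = 0.30). Over the 10 samples of each, Opalin ranged from 6.46 to 28.0 CPM with a median of 17.3 after 5 injuries and from 12.3 to 28.3 CPM with a median of 23.8 after 1. The ranges overlapped, with samples 7, 8 and 12 after 5 injuries below every sample after 1. The other 8 members had values from -0.14 (Mbp) to 0.25 (Cldn11), and the median of the 9 was -0.10. Without sample 11 all 9 were below 0 with a median of -0.19 and 2 of 9 passed unadjusted, where 19.3% of all genes did. Without samples 10 and 11 the median was -0.22 and 5 of 9 passed unadjusted, where 19% of all genes did (edgeR, smallest adjusted p = 0.18). Here too, leaving out the samples with the highest myelin level lowers the 5xCHI side by construction. On leaving out other single samples of these groups 0 or 1 passed unadjusted, where 12.3% to 23.5% of all genes did, and the calls over all genes ran from 0 to 643. The median was -0.11 or -0.13 with the sample range or the sample number as a covariate, and 0 or 1 of 9 passed unadjusted, where 19.8% and 20.7% of all genes did.

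Genes of other cells that were called in that comparison were microglial and choroid plexus markers. Of 7 microglial markers 2 were called, both higher after 5 injuries than after 1: Csf1r, the receptor for colony stimulating factor (log2 fold change 0.55, SE 0.13, edgeR adjusted p = 0.029), and Cx3cr1, the fractalkine receptor (0.41, SE 0.10, adjusted p = 0.037). Ttr, transthyretin of the choroid plexus, was called too (edgeR, 4.13, SE 1.02, adjusted p = 0.039), and DESeq2 gave it no adjusted p. The summed choroid plexus markers were 2465, 1287 and 412 CPM in samples 31, 32 and 12 and 5.71 to 40.4 CPM in the other 7 samples after 5 injuries, beside 9.95 to 47.0 CPM after 1. So 3 samples stood apart, and the medians were close, at 31.1 and 24.9 CPM. Without sample 31 the log2 fold change of Ttr was 2.16 (edgeR, adjusted p = 0.16), without sample 32 it was 2.52 (0.14) and without sample 12 it was 3.32 (0.073).

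Of 20 fits that left out 1 sample of these groups, Ttr was called in 7 and Csf1r and Cx3cr1 in 11 each. Samples 10 and 11 had the highest microglial sums, and without both Csf1r was at 0.34 and Cx3cr1 at 0.22 (edgeR, adjusted p = 0.080 for each). Over the 17 lists read beside the members, 106 genes were tested and these 3 were the only calls in any comparison by the edgeR fit with all 39 samples. None of 19 other myelin genes, 7 oligodendrocyte transcription factors, 6 genes of newly formed oligodendrocytes or 7 of oligodendrocyte precursors was called in any. At an unadjusted p under 0.05 by edgeR, 6 of the 19 other myelin genes were lower and 0 higher at 0.5 h after the fifth injury (6.37% of all genes passed). Their median log2 fold change was -0.42. At 4 h after it 3 were higher and 0 lower (5.33%), with a median of 0.13.

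Within the sample numbers, the summed myelin level after 5 injuries was 3842 ± 973 CPM (n = 4) in samples 19 to 40, where sham had 4244 ± 778 (n = 3). In samples 1 to 18 it was 4923 ± 1563 (n = 6) beside a single sham sample at 5286. Opalin was 17.1 ± 0.722 CPM after 5 injuries in samples 19 to 40 and 15.9 ± 8.12 in samples 1 to 18 after the same number.

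The myelin genes varied mostly together. A common direction of the 9 in a comparison, or a count of them, is therefore not 9 separate observations. Over the 39 samples the pairs of members had Pearson correlations of 0.46 to 0.95 in log2 CPM, with a median of 0.81 (Spearman 0.59 to 0.96, median 0.82). The first principal component of the 9 genes held 78.4% of their variance and the second 12.3%. Mbp and Mobp were the closest pair (0.95), and Cldn11 and Opalin the least alike (0.46). The samples share library depth as a divisor and part of the dissection, and no test is attached to these values. Within samples 1 to 18 the median was 0.83, within samples 19 to 40 it was 0.80, and without samples 10 and 11, the 2 farthest from the median level, it was 0.77.

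The common level was little ordered by injury. The 12 groups took 28.2% of the sum of squares of the mean log2 CPM of the 9 genes, beside a median of 29.3% over all genes tested. Among the members the share ran from 20.1% for Mag to 38.7% for Opalin. The SD in log2 CPM was 0.28 for Cnp and for Mal, 0.43 for Cldn11 and 0.48 for Opalin, and the median over all genes was 0.22.

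Opalin and Cldn11 left the common level in a few samples. For each sample the log2 CPM of a gene was set against the mean of the other 8 and centred on the median over samples. Opalin was lower by more than 0.5 in 5 samples, of which 4 came after 5 injuries: -0.78 and -0.59 in samples 7 and 8 at 0.5 h, and -0.82 and -1.16 in samples 11 and 12 at 24 h. The fifth was sample 36 at 4 h after 1 injury, at -0.50. Other 5xCHI samples did not share this, and sample 31 at 0.5 h was at 0.35.

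Cldn11 was higher by 0.54 in sample 10 and by 1.01 in sample 11, and stayed within 0.32 of 0 in the other 37. Sample 11 had the highest level of 7 of the 9 genes, all but Ermn and Opalin, while its Opalin, at 20.2 CPM, lay near the median of 18.9. Mobp departed by 0.60 in sample 12, and no other member by more than 0.5. The choice of these samples followed their values, and no test is given.

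**Figure D4:**
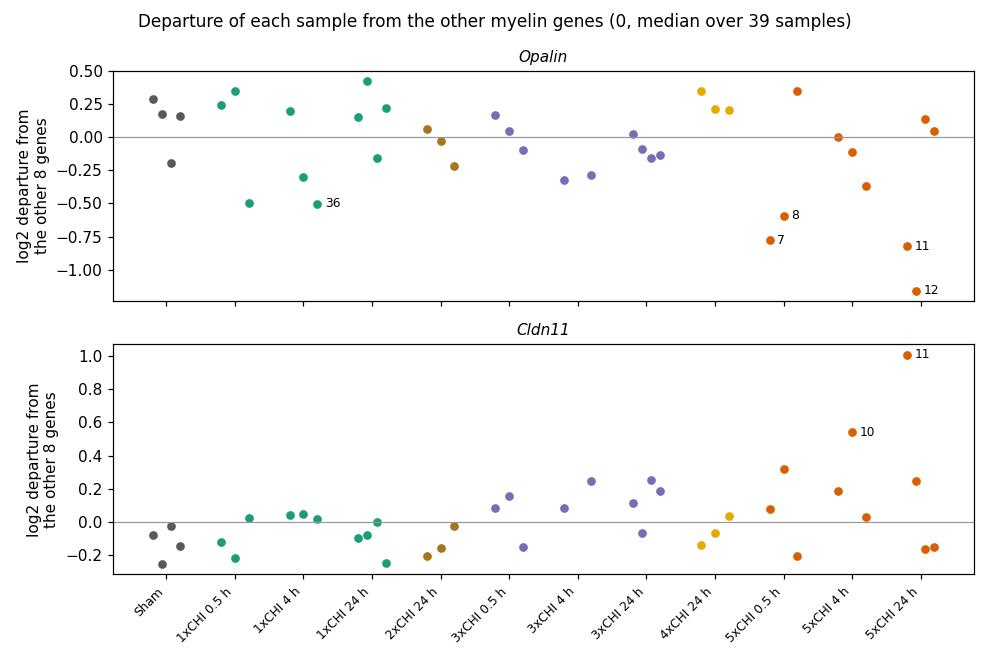
Log2 CPM of Opalin (upper panel) and Cldn11 (lower panel) minus the mean of the other 8 myelin genes, centred on the median over 39 samples (y axis), by group (x axis), with 1 point per sample and sample numbers beside departures over 0.5. Opalin falls to -1.16 in sample 12 and Cldn11 reaches 1.01 in sample 11.

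Outside the 9, the gene whose log2 CPM followed their mean most closely over 39 samples was Tmem63a, an osmosensitive ion channel (Pearson 0.93, Spearman 0.92). Also among the first 10 were Ttyh2 (0.91), Gatm, an enzyme of creatine synthesis (0.91), and Gjb1, the connexin of myelin gap junctions (0.91). Sox10, the transcription factor of the lineage (0.90), Fa2h, which hydroxylates myelin lipids (0.90), Olig1, a lineage factor (0.89), Efnb3 (0.89) and Nkx6-2, a homeobox factor of oligodendrocytes (0.89), were among them too. In samples 1 to 18 the first 10 lay between 0.86 and 0.96 and in samples 19 to 40 between 0.85 and 0.91.

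The other genes of the lineage were set beside the members by list. The summed CPM of the other myelin genes had a Pearson correlation of 0.96 with the mean of the members, the oligodendrocyte transcription factors 0.93 and the genes of newly formed oligodendrocytes 0.89, each over 39 samples. The precursor markers had 0.58, which went to 0.34 without samples 10 and 11. Gene by gene, the median was 0.80 for 19 other myelin genes, 0.75 for the transcription factors, 0.51 for the genes of newly formed oligodendrocytes and 0.47 for the precursor markers, so the last 2 lists lay close to each other. Among the newly formed genes the values ran from 0.35 (Gpr17) to 0.81 (Bcas1, which holds most of that list's CPM), and among the precursor markers from 0.16 (Pdgfra, the growth factor receptor of precursors) to 0.72 (Matn4). Nfasc, which neurons make as well, had the lowest value of the other myelin genes (0.13).

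Markers of other cells and layers showed where the samples with most myelin RNA stood apart. The upper-layer neuron markers had -0.73 (Spearman -0.65), -0.58 without samples 10 and 11, -0.71 within samples 1 to 18 and -0.61 within samples 19 to 40. The neuronal markers had -0.57, and -0.27 without samples 10 and 11. The microglial and astrocyte markers had 0.46 and 0.24, and -0.02 and -0.19 without those 2 samples, so both values rested on them. The hippocampal markers had 0.70, and 0.54 without those 2, with 0.60 for C1ql2, 0.47 for Prox1 and -0.45 for Fibcd1 among the 3 that were tested. The remaining lists lay between -0.25 and 0.37: choroid plexus -0.25, striatum -0.24, meninges -0.14, endothelium -0.05, layer 6 -0.01, peripheral myelin 0.02, layer 6b 0.15 and ependyma 0.37.

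In samples 10 and 11 the upper-layer markers summed to 518 and 428 CPM, below the 640 to 1011 CPM of all the other samples. The microglial markers summed to 639 and 787 CPM in them, above the highest of all the other samples (401 CPM), and the astrocyte markers to 6891 and 7573 CPM. Gfap, the astrocyte filament, had 1671 and 2490 CPM there, and hippocampal markers 53.6 and 51.5 CPM against a median of 27.9. The part of white matter, of neighbouring tissue and of glial change in the myelin levels of samples 10 and 11 was not tested, and for a bulk dissection these cannot be told apart.

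**Figure D5:**
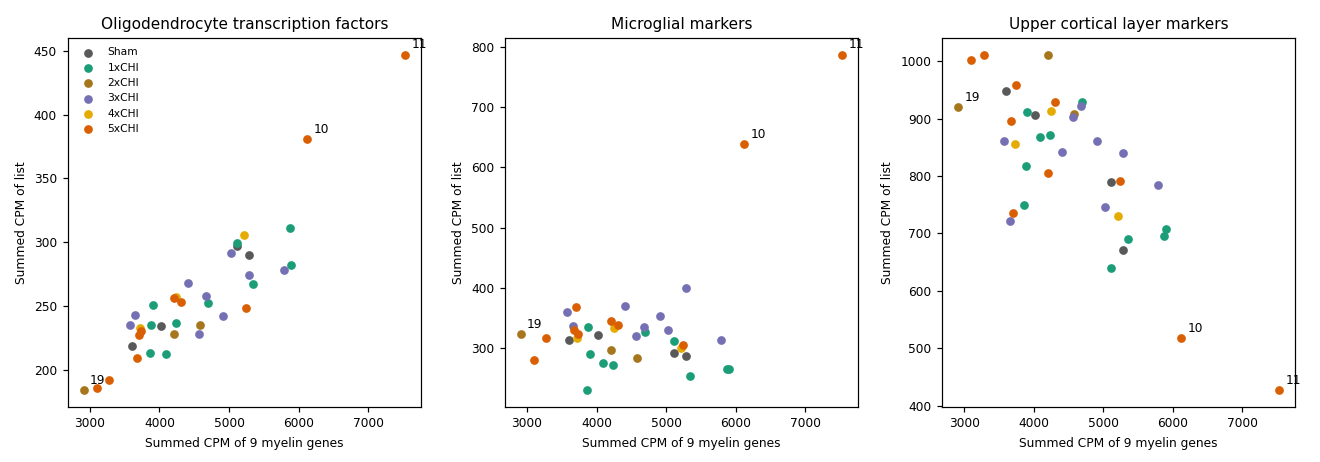
Summed CPM of oligodendrocyte transcription factors (left), microglial markers (middle) and upper-layer neuron markers (right) on the y axes, against the summed CPM of the 9 myelin genes (x axis), with 1 point per sample and colour for the number of injuries. Samples 10 and 11 lie at the right end of each panel, with 518 and 428 CPM of upper-layer markers, and sample 19 at the left end with 2913 CPM of myelin genes.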

How the data were processed

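RNA-seq libraries of 40 samples were prepared, sequenced and counted by a company. The authors deposited estimated counts per gene, neither normalized nor filtered, of which 4.46% were not whole; the submitters' processing notes name mm10, and the column names carry the suffix that salmon gives to gene tables. Groups and sample numbers came from the sample titles, and sample 30, an outlier of the study's protein data, was left out. Genes were dropped where over 4 samples had less than 10 counts, the rest were rounded, and edgeR 4.0.16 (TMM, quasi-likelihood F-test, R 4.3.3) was fitted to all 15224 genes with Benjamini-Hochberg adjustment and a threshold of 0.05. Comparisons were made with all groups in the fit. CPM used summed counts, and log2 CPM a prior count of 1. Alternatives were DESeq2 1.42.0, library size scaling, other filters, all 40 samples, 1 surrogate variable (sva 3.50.0), sample number or sample range as covariate, only the compared groups, and leaving out each sample. Leaving out samples 10 and 11, or 15, 26 and 31, was added after seeing the data.

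The genes and the marker lists were chosen with earlier results of these data known. The genes named are the 9 members, Gfap, genes of the lists that were called or that lead their list in level, and the 10 genes most like the mean of the members; Pdgfra, Matn4, Gpr17, Bcas1, Nfasc, C1ql2, Prox1 and Fibcd1 were chosen after their values were seen. Some genes under this rule are not reported here. Each sample came from a different mouse, so p-values measure the spread between mice. Of 46 pairs of samples within groups, each differed by more than sampling noise (smallest chi-square per gene 6.68). Tested on simulated data, the fit of 5xCHI against sham recovered 91.9% of 2-fold and 97.9% of 4-fold changes among 15092 genes, and that of 5xCHI 24 h against 4xCHI 24 h 75% and 95% among 15113. The simulation drew each gene independently, without a level that genes share within a sample and without changes under 2-fold. These percentages therefore do not carry over to the myelin genes. Promoter sequences are from RefSeq (GRCm38.p6), where 8 of 9 members matched, and gene positions from GENCODE (GRCm38), where 55450 of 55539 identifiers matched.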

Additional observations from a re-analysis of the deposited data

Results flagged for a closer look

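In 63 sets of values (9 genes in the groups of 4 to 10 samples), 3 held a sample far from the others by Dixon's criterion, where chance gives about 1 in 20, or 3.15. At 24 h after 5 injuries sample 11 had 4274 CPM of Mbp, where the other 3 samples had 1820 to 2046 CPM, and 496 CPM of Cldn11, where the others had 107 to 124 CPM. At 24 h after 1 injury sample 17 had 190 CPM of Cldn11, where the others had 141 to 145 CPM. The test of whether the change after an injury differed between the first, the third and the fifth called 0 of the 9 genes. Sample 30, not used, lay within the range of the sham samples for each of the 9 genes, with 2259 CPM of Mbp and 18.3 CPM of Opalin.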

How the results depend on the processing

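The count of 0 members called held in all 6 sets of comparisons under every alternative that was run, 296 values in all. The smallest adjusted p of any member was 0.30 in the fit as reported, 0.26 by DESeq2, 0.22 with sample number as a covariate, 0.18 without samples 10 and 11, 0.13 with only the compared groups (Ermn at 0.5 h after the fifth injury) and 0.11 on leaving out 1 sample (Opalin, 5xCHI against 1xCHI, without sample 27). Of 171 tests of members 5 had an unadjusted p under 0.05 as reported, 9 by DESeq2, 11 without a filter on low counts, 12 with the surrogate variable, 13 with sample number, 10 with the sample range, 17 of 126 with only the compared groups and 32 without samples 10 and 11. The share of all genes that passed unadjusted differed between comparisons, lowest for 4xCHI against sham and highest for 1xCHI at 0.5 h against sham. It ran from 1.7% to 19.7% as reported, from 1.88% to 20.7% by DESeq2 and from 2.45% to 23.6% without samples 10 and 11. The members vary together, so these counts are not of separate observations. Of 144 fold changes, none of them called, 1 changed sign by DESeq2, 7 by library size scaling, 24 with the surrogate variable, 32 with sample number, 33 with the sample range and 13 without samples 10 and 11. The mean CPM of Cldn11 at 24 h after 5 injuries, 212 with all 4 samples, ran from 118 (without sample 11) to 248 (without sample 33). No paired analysis was possible because each sample number belongs to 1 sample and no number is shared between groups.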
